A study of Mus musculus with 2 samples.

Results

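Matrix proteases and their inhibitors were examined as a set of 33 genes, all found among the 27998 genes listed for 2 libraries of 3′ single-cell RNA sequencing of mouse pancreas. The genes were picked by symbol. They comprise 8 secreted and 2 membrane-bound matrix metalloproteinases (MMPs), 5 inhibitors of metalloproteinases, 5 ADAMTS proteases, 4 genes of plasminogen activation, 4 cathepsins, 4 other serine proteases and 1 serpin that does not inhibit proteases. All mice carried the Rosa-mTmG reporter and Fabp4-Cre, which turns cells green once Cre has been active under the Fabp4 promoter. That promoter is also active in adipocytes, endothelial cells and macrophages, so that green cells need not be fibroblasts. Cells of the tumour library were sorted for GFP together with podoplanin (PDPN) and are labelled as cancer-associated fibroblasts (CAFs). Their tumours were taken 21 days after implantation of the FC1245 line of pancreatic cancer into the pancreas of mice aged 8 weeks. Cells of the normal library were sorted for GFP alone and are labelled as pancreatic stellate cells (PSCs), from healthy pancreas of mice aged 6 to 9 weeks. Each group had 1 library and the number of mice is not given in the sources used here, so no test of the conditions was possible and every interval below is a 95% interval of counting error only. Tumours were digested with collagenase IV, dispase and trypsin and normal pancreas with pronase and collagenase P, so that group, sort gate and digestion cannot be told apart.

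The extracellular matrix of the pancreas is built and trimmed largely by fibroblasts. MMPs and ADAMTS proteases are zinc enzymes made as inactive precursors, which cleave collagens and proteoglycans once activated. Tissue inhibitors of metalloproteinases (TIMPs) bind the active enzymes, alpha-2-macroglobulin traps proteases of many kinds, and RECK is a membrane-anchored inhibitor. Plasminogen activators make plasmin, a serine protease that degrades fibrin and can activate MMP precursors, while cathepsins are proteases of the lysosome that some cells also secrete. Cells of fibroblast, macrophage and endothelial type share several of these genes, so each was followed in every cell class as well as in the fibroblasts.

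Unique molecular identifiers (UMIs, each 1 captured transcript) numbered 33285044 over the 2942 barcodes of the tumour library and 36675424 over the 5437 barcodes of the normal library. After filtering, 2520 tumour and 4515 normal cells remained, with medians of 10156.5 and 7045 UMIs. A total of 4 barcodes occurred in both libraries. Fibroblast-like cells, named from collagen genes, Dcn, Lum, Pdgfra and a few others, numbered 2255 in the tumour and 1488 in the normal library. Col1a2 was detected in 99.7% of the tumour and 98.6% of the normal ones. The normal library also held 1398 macrophage-like and 1345 endothelial-like cells, against 53 and 6 in the tumour library. In the tumour fibroblast-like cells 2138 had an Xist UMI and no Y-linked UMI and 0 had a Y-linked UMI. In the normal ones 494 had only Xist and 756 only Y-linked UMIs, so that the sex of the cells differed between the libraries.

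The first genes shown lie close together. On GRCm38 (mm10) chromosome 9, GENCODE places Mmp13 (chr9:7272514-7283331), Mmp12 (chr9:7344381-7369499), Mmp3 (chr9:7445822-7455975) and Mmp10 (chr9:7502352-7510240) in this order on the plus strand. The distances from each to the next were 61050, 76323 and 46377 bases. Genes outside the set lie among them. On the minus strand, Mmp1b overlaps the end of Mmp12 and extends towards Mmp3, and Mmp1a lies on the plus strand between Mmp3 and Mmp10. Mmp13 is a collagenase, Mmp3 and Mmp10 are stromelysins with broad substrates, and Mmp12 is the elastase of macrophages. The proximal promoters of stromelysin and collagenase genes are textbook examples of AP-1 (Fos and Jun) sites, so 300-base RefSeq windows on GRCm38.p6, from 250 bases before the transcript start, were searched for TGANTCA, whose letters read alike on both strands. A window was held for 22 of the 33 genes. The motif was in a window of 5 of them (22.7%), namely Mmp3, Mmp10, Mmp12, Mmp13 and the urokinase receptor gene Plaur, against 2425 of all 27025 genes with a window (8.97%). It began at -46 in Mmp3, -63 in Mmp10, -35 in Mmp13 and -69 in Plaur, with -1 as the base just before the start, and at -44 in the second of 2 Mmp12 windows. The other 17 genes with a window, Timp1 and Mmp11 among them, had no match. A match is a string of letters and not a measured site. The 4 windows below are those of members whose UMIs were more frequent in the tumour fibroblast-like cells, as described further on, with the motif in capitals. They lie at chr9:7445572-7445871 (Mmp3), chr9:7502092-7502391 (Mmp10), chr9:7272264-7272563 (Mmp13) and chr7:24462233-24462532 (Plaur), all on the plus strand.
Mmp3: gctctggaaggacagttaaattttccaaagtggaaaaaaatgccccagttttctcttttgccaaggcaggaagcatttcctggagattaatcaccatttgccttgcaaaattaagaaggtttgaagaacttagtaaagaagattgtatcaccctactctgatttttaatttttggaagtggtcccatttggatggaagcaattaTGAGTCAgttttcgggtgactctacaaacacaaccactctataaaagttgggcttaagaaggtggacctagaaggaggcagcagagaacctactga
Mmp10: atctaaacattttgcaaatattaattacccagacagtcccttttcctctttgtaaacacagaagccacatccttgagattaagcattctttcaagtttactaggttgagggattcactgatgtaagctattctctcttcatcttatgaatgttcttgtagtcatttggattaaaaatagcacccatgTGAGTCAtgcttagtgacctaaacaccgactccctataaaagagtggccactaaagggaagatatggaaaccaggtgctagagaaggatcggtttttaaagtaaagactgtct
Mmp13: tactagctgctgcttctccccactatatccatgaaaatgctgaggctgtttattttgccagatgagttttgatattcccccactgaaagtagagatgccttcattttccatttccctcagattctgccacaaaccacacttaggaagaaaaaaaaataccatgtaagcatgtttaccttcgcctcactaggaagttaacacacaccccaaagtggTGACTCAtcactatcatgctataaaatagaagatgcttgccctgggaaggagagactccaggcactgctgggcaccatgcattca
Plaur: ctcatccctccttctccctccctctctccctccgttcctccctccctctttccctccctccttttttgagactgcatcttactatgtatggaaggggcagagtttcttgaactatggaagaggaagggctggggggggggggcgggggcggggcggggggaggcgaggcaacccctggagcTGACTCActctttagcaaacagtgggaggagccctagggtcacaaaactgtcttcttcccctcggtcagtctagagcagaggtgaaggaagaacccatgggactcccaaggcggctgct

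Summed over fibroblast-like cells, the largest called differences were higher A2m, Mmp13, Timp1, Plaur and Mmp3 and lower Pcsk6 and Adamts5 in the tumour library. That of Mmp13 rested on 27 tumour cells, as described further on. UMIs were scaled to a class sum of 1000000 (CPM), where 1 UMI is 0.0344 CPM in the tumour and 0.0702 CPM in the normal sum. A gene was called when the fold of tumour over normal CPM was at least 2 in either direction, its interval excluded 1, and either sum reached 20 CPM. Of the 33 genes, 7 were called higher in tumour fibroblast-like cells (Mmp3, Mmp11, Mmp13, Timp1, A2m, Adamts4 and Plaur), where 7.47% of the 6857 genes that reached 20 CPM in 1 or both sums were called higher. A further 6 were called lower (Reck, Adamts5, Adamts12, Plau, Fap and Pcsk6), where 11.3% of all such genes were called lower (18.8% in either direction). Another 16 were past neither limit, and Mmp9, Mmp10, Mmp12 and Ctss stayed under 20 CPM in both sums. As shares of all 33, including those under 20 CPM that could not be called, the called genes were 21.2% higher and 18.2% lower. The shares over all genes given above leave out genes under 20 CPM, so the bases differ. The median log2 fold was 0.46 over the 29 members with 20 CPM and -0.25 over all such genes. The number of cells and the RNA per cell both enter a class sum only as a share of its UMIs, so a CPM gives no absolute amount.

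**Figure D1:**
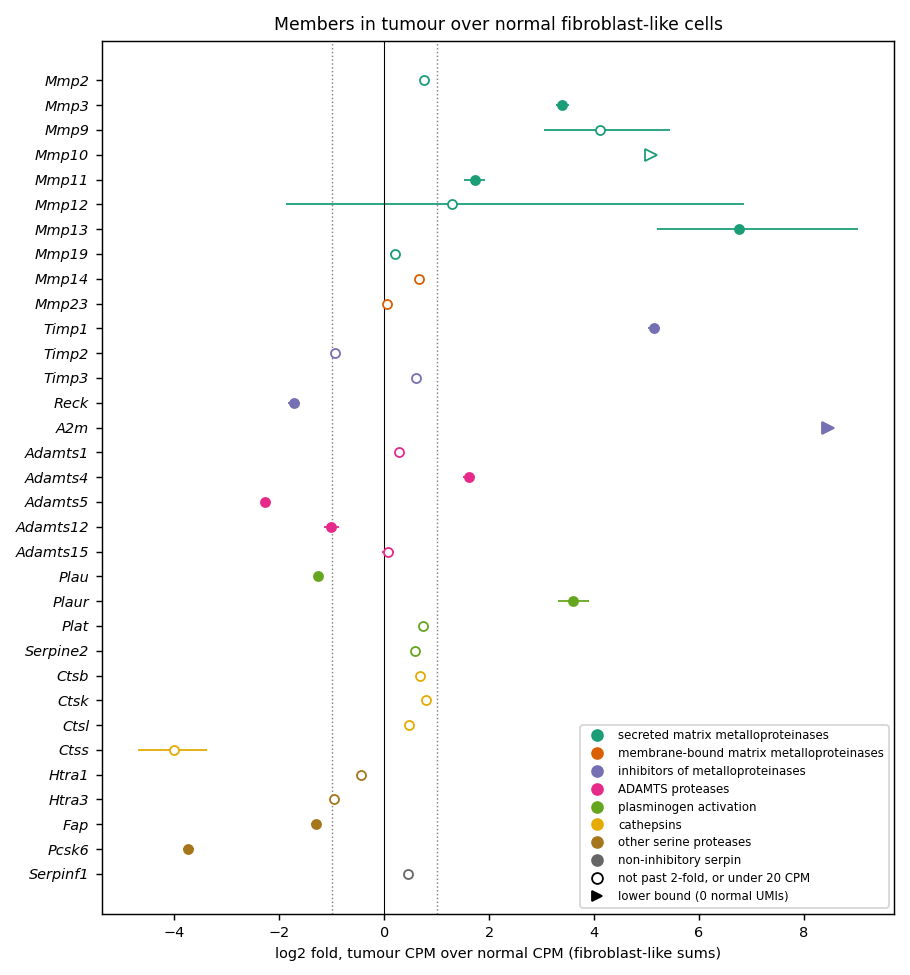
Log2 fold of tumour CPM over normal CPM in fibroblast-like sums (x axis) for each of the 33 genes (y axis, coloured by role), with 95% counting intervals as bars. Filled points are past 2-fold (dotted lines) with at least 20 CPM. Triangles, labelled as lower bounds, are folds with 0 normal UMIs set to 3, drawn without their interval. Pcsk6 (-3.73) and Timp1 (5.14) are the lowest and highest filled points that are not triangles or based on 3 normal UMIs.

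Among the secreted MMPs, the stromelysin gene Mmp3 stood at 445 CPM in tumour and 42.3 CPM in normal fibroblast-like cells, a fold of 10.5 (9.69 to 11.4). After each cell was thinned to 5000 UMIs, which 1877 tumour and 1338 normal cells had, 29.6% of the tumour and 8.37% of the normal cells held a Mmp3 UMI. At 2000 UMIs per cell the shares were 24.0% and 5.13%. B-like cells, a class not known for this enzyme, had 0 Mmp3 UMIs in either library. In them 3 UMIs would be 17.6 CPM in the tumour and 4.11 CPM in the normal library. Mmp3 was therefore spread over many tumour cells. Its top 1% of cells held 21.6% of the tumour UMIs, against 40.0% of the normal ones. Mmp11, a stromelysin that is activated inside the cell by furin, was at 52.1 CPM in tumour and 15.8 CPM in normal cells, a fold of 3.30 (2.86 to 3.81), with thinned shares of 18.9% and 7.62%.

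Mmp13 (collagenase 3) reached 22.7 CPM in tumour cells, from 662 UMIs, and 0.211 CPM in normal cells, from 3 UMIs, a ratio of 108 (36.8 to 525). These tumour UMIs lay in 27 of 2255 cells. One cell held 270 of them and another 135. Mmp13 passed the 20 CPM limit only through such cells, and without the single cell with most UMIs it no longer did. Mmp10 (stromelysin 2) had 208 UMIs in 30 tumour cells and 0 in normal cells. With the normal count set to 3 the fold of Mmp10 was 33.9, with a lower interval limit of 27.4. It stood at 7.15 CPM in tumour cells, under the 20 CPM limit. Mmp9 (gelatinase B) had 248 UMIs in 48 tumour cells and 7 UMIs in 7 normal cells, or 8.52 and 0.491 CPM. The genes Mmp9, Mmp10 and Mmp13 thus shared a pattern of many transcripts in few tumour cells, in contrast to Mmp3.

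The remaining secreted enzymes differed less. Mmp2 (gelatinase A; chr8:92827291-92853420) was at 1095 CPM in tumour and 643 CPM in normal cells, a fold of 1.70 (1.66 to 1.74), and was detected in 94.7% and 89.3% of thinned cells. Mmp19 was at 102.8 CPM in tumour and 88.9 CPM in normal cells, with thinned shares of 36.8% and 35.1%. Macrophage elastase Mmp12 had 5 UMIs in tumour and 1 in normal fibroblast-like cells. Of the membrane-bound enzymes, Mmp14 (MT1-MMP), which activates the precursor of MMP2 at the cell surface, was at 479.9 CPM in tumour and 302 CPM in normal cells, a fold of 1.59 (1.54 to 1.65). Mmp23 was nearly level, at 195 CPM in tumour and 189 CPM in normal cells.

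The 3 TIMP genes differed in direction. Timp1 (chrX:20870166-20874735) was at 1580.4 CPM in tumour and 44.8 CPM in normal fibroblast-like cells, a fold of 35.3 (32.6 to 38.2). It was found in 80.4% of thinned tumour cells and 14.8% of thinned normal cells. At 2000 UMIs per cell these shares were 60.0% and 6.23%, and B-like cells held 2 Timp1 UMIs in 52 tumour cells and 1 in 74 normal cells, at median depths of 2615.5 and 9821.5 UMIs. Timp2 (chr11:118301069-118355740), which can also help MMP14 to activate MMP2, was at 869.9 CPM in tumour and 1675 CPM in normal cells, 1.93-fold lower (1.89 to 1.96) and just short of the 2-fold limit. Timp3 (chr10:86300372-86349506), which binds to the matrix, was at 1303 CPM in tumour and 860.4 CPM in normal cells, a fold of 1.51 (1.48 to 1.55). Its share of thinned cells was nonetheless lower in the tumour library, at 69.0% against 88.0%. Timp1 made up 42.1% of the UMIs of these TIMPs in tumour cells and 1.74% in normal cells.

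Timp1 lies on the X chromosome, and the tumour cells carried no Y-linked UMI. Normal cells with Xist but no Y-linked UMI had 56.0 Timp1 CPM and those with only Y-linked UMIs had 40.7 CPM. With only the first of these as the normal sum the log2 fold was 4.82, against 5.14 with all normal cells.

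The other inhibitors went in opposite directions. A2m (alpha-2-macroglobulin; chr6:121635376-121679227) had 2141 UMIs, or 73.6 CPM, in tumour fibroblast-like cells and 0 UMIs in normal ones, where the interval reaches 0.259 CPM. With the normal count set to 3 the fold of A2m was 349, and the lower limit of its interval was 284. A2m was found in 10.2% of thinned tumour cells, and the 23 cells with most of it held 40.4% of its UMIs. No A2m UMI was found in tumour macrophage-like, lymphatic endothelial-like, epithelial-like or B-like cells, nor in the normal classes with at least 20 cells. In the tumour library 3 UMIs would be 2.85 CPM in epithelial-like and 17.6 CPM in B-like cells. Reck (chr4:43875530-43944806) was at 33.3 CPM in tumour and 109.8 CPM in normal cells, 3.30-fold lower (3.04 to 3.58), with thinned shares of 16.6% and 39.8%.

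**Figure D2:**
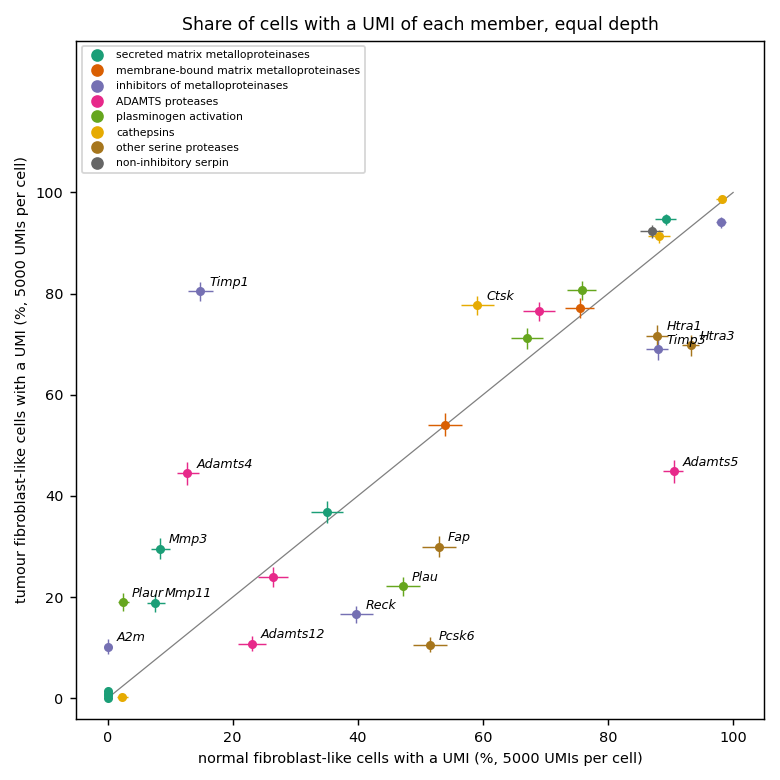
Share of fibroblast-like cells with at least 1 UMI of each gene after thinning to 5000 UMIs per cell, normal library on the x axis and tumour library on the y axis, coloured by role with 95% Clopper-Pearson bars. Timp1 (80.4% tumour, 14.8% normal) and Adamts4 lie far above the line of equal shares, and Adamts5 (44.9% tumour, 90.5% normal) and Pcsk6 far below it.

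The ADAMTS proteases that cleave the proteoglycans aggrecan and versican were divided. Adamts4 (chr1:171250421-171260637) was at 156 CPM in tumour and 51.2 CPM in normal cells, a fold of 3.05 (2.82 to 3.30), with thinned shares of 44.5% and 12.8%. Adamts5 (chr16:85856173-85901828) was at 208 CPM in tumour and 1003 CPM in normal cells, 4.82-fold lower (4.67 to 4.97), with thinned shares of 44.9% and 90.5%. Its neighbour Adamts1 (chr16:85793827-85803113), 53060 bases away, was at 560.2 CPM in tumour and 458 CPM in normal cells, a fold of 1.22. Adamts15 stood at 67.7 CPM in tumour and 64.0 CPM in normal cells. Adamts12 was at 30.4 CPM in tumour and 61.1 CPM in normal cells, 2.01-fold lower (1.83 to 2.21), a call that lay at the limit and held in 11 of 21 other settings, with a log2 fold of 0.064 once the normal cluster led by Abca8a, described below, was left out. A list of 22 dissociation and immediate early genes also differed between the libraries. It summed to 28717 CPM in tumour and 16746.5 CPM in normal fibroblast-like cells, with 11 of its genes called higher, where 7.47% of all genes were, 0 called lower, where 11.3% were, and none at 0. Its part in any of the results was not tested.

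In the plasminogen system the receptor and its ligand went opposite ways. Plaur, the urokinase receptor (chr7:24462484-24475968), was at 82.6 CPM in tumour and 6.81 CPM in normal fibroblast-like cells, a fold of 12.1 (9.89 to 15.01), with thinned shares of 19.0% and 2.47%. Its log2 fold was 3.60, and 4.31 without the 50 normal cells that fell with a tumour cluster, described below. Other cells had it at a higher level, at 471 CPM in macrophage-like and 340 CPM in B-like cells of the tumour library. At 2000 UMIs per cell, 8.36% of tumour fibroblast-like and 54.8% of tumour B-like cells had a Plaur UMI, and 0.958% of normal fibroblast-like and 5.48% of normal B-like cells, so that B-like cells give no background level for this gene. Plau, urokinase itself (chr14:20836660-20843385), was at 67.4 CPM in tumour and 161 CPM in normal cells, 2.39-fold lower (2.25 to 2.54). Without the normal cluster led by Abca8a the log2 fold of Plau was 0.76 in place of -1.26. Plat (tissue plasminogen activator) was at 596 CPM in tumour and 358 CPM in normal cells. Serpine2 (protease nexin-1), which inhibits thrombin and plasminogen activators, was at 784 CPM in tumour and 523 CPM in normal cells, a fold between 1.46 and 1.54, and its log2 fold without the normal cluster led by Abca8a was 3.77, called higher.

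None of the cathepsin genes was called, although Ctsb and Ctsk passed 2-fold under TMM scaling, which raises every log2 fold by 0.35. Ctsl was at 1305 CPM in tumour and 946 CPM in normal fibroblast-like cells, Ctsb at 699.6 CPM in tumour and 434 CPM in normal cells. Ctsk, the collagen-cleaving cathepsin known from osteoclasts, was at 381 CPM in tumour and 219.5 CPM in normal cells, a fold of 1.74 (1.67 to 1.81), with thinned shares of 77.7% and 59.1%. Ctss, a cathepsin of antigen-presenting cells that lies 17424 bases from Ctsk on chromosome 3, had 23 UMIs in 2255 tumour cells and 180 UMIs in 1488 normal cells. The 10 macrophage markers summed to 14.7 CPM in tumour fibroblast-like cells, with 1 of them at 0, and to 297 CPM in normal ones, with none at 0. Markers of acinar cells summed to 57.7 CPM in tumour and 473 CPM in normal fibroblast-like cells and those of endothelial cells to 51.0 and 212 CPM, with no marker at 0. Of the normal Ctss UMIs, those in the 15 cells with most made up 76.7%. The 50 normal cells that fell with a tumour cluster, described below, held 120 of the 180. Macrophage markers summed to 5004 CPM in those 50 cells. In the normal clusters led by Abca8a and Sema3c they summed to 93.6 and 99.8 CPM.

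Of the other serine proteases, 2 were called lower and none higher. Pcsk6 (PACE4; chr7:65861734-66050386), a convertase that cleaves precursors of growth factors and proteases, was at 29.1 CPM in tumour and 387 CPM in normal cells, 13.3-fold lower (12.4 to 14.3). A Pcsk6 UMI was found in 10.5% of thinned tumour and 51.5% of thinned normal cells. Fap (chr2:62500943-62574075), a surface protease widely used as a marker of activated fibroblasts, was at 77.5 CPM in tumour and 192 CPM in normal cells, 2.47-fold lower (2.34 to 2.62), with thinned shares of 29.9% and 53.0%. Its log2 fold was -1.31, and -0.96 under TMM scaling. Htra3 was at 418 CPM in tumour and 816 CPM in normal cells, 1.95-fold lower and just short of the limit, and Htra1 was at 429 CPM in tumour and 580.4 CPM in normal cells. Serpinf1 (pigment epithelium-derived factor), a serpin without inhibitory function, was at 919 CPM in tumour and 675 CPM in normal cells.

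**Figure D3:**
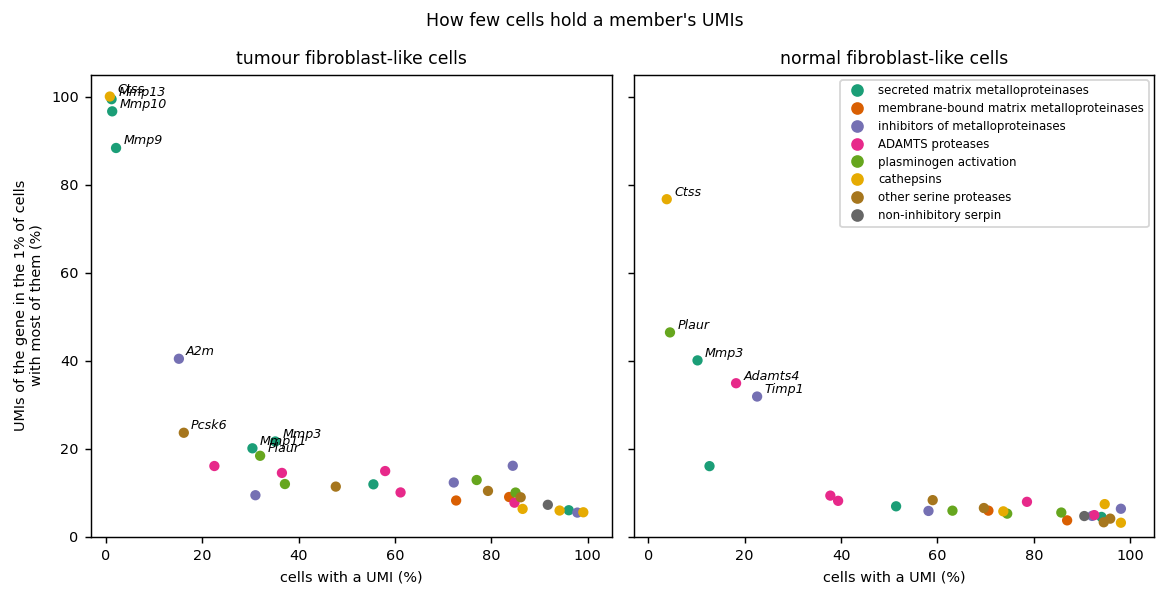
Share of a gene's UMIs held by the 1% of fibroblast-like cells with most of them (y axis, %) against the share of cells with a UMI (x axis, %), for genes with at least 20 UMIs, coloured by role, tumour library left and normal library right. In the tumour library Mmp9, Mmp10, Mmp13 and Ctss sit at the top left, with nearly all UMIs in few cells, while A2m (40.4%) lies between them and the other genes. The tumour UMIs of Ctss lie in only 19 cells and the top 1% is 23 cells, so its share of 100% is fixed by its low count.

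The fibroblast-like cells fell into clusters that were found without the 33 genes and that were nearly all of 1 library. Tumour cells formed clusters led by Inhba (433 cells), Thbs4 (402), Ptx3 (985) and Apod (419), and normal cells formed clusters led by Abca8a (1055) and Sema3c (365). Another 50 normal cells fell with the cluster led by Inhba. Those 50 carried macrophage markers at 5004 CPM, epithelial markers at 912 CPM, mesothelial markers at 2059.8 CPM and cycling genes at 2781 CPM, with Ctss at 205 CPM, and are left out where normal clusters are described here. The tumour clusters differed in markers too. Myofibroblast genes summed to 6789 CPM in the cluster led by Inhba, 4176 CPM in that led by Thbs4, 1142 CPM in that led by Ptx3 and 397 CPM in that led by Apod. Immediate early genes summed to 19767, 28599.5, 36465 and 36848 CPM in the same order. Each cluster was set against the other tumour fibroblast-like cells as a description, since cells of 1 library are no replicates.

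In the cluster led by Inhba, 5 of the 33 genes were at least 2-fold higher than in the other tumour fibroblast-like cells and 6 lower, where 5.19% of all genes tested were higher and 6.76% lower. Timp1 reached 2609.8 CPM there and Plaur 168 CPM, against 966 and 31.8 CPM in the others. All but 18 of the 248 Mmp9 UMIs and 512 of the 662 Mmp13 UMIs lay in this cluster. Neutrophil markers, which include S100a8 and S100a9, summed to 844 CPM there and to under 2.1 CPM in each of the other tumour clusters, and their part in the Mmp9 level was not tested. Mmp3, Reck, Adamts5, Adamts15, Htra3 and Pcsk6 were the genes at least 2-fold lower. Adamts5 was at 65.8 CPM in this cluster and 293 CPM in the others.

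The cluster led by Ptx3 was the largest. Its calls are not independent of those of the cluster led by Inhba, since each is part of the cells that the other is set against. There 5 genes were at least 2-fold higher than in the other tumour fibroblast-like cells (Mmp3, Adamts5, Adamts15, Htra3 and Pcsk6; 3.92% of all genes) and 5 lower (Mmp13, Timp1, Timp3, Adamts12 and Plaur; 4.56% of all genes). Mmp3 was at 844 CPM in this cluster and 254 CPM in the others. Timp3 was at 339 CPM here and 1762 CPM in the others. Pcsk6 was at 70.4 CPM here and 9.44 CPM in the others. The cluster led by Thbs4 had 2 genes higher (2.62% of all genes), Timp3 at 2218 CPM and A2m at 150.4 CPM, and 5 lower (4.14% of all genes), among them Plau at 29.5 CPM. In the cluster led by Apod, 3 genes were higher (5.11% of all genes) and 3 lower (5.47% of all genes). Plau was at 245 CPM there and 45.2 CPM in the others, and Htra3 at 913 CPM and 356 CPM. Mmp13 was among the genes higher there, but all 135 of its UMIs in that cluster lay in 1 of the 419 cells. The cells that the clusters led by Ptx3 and Thbs4 were set against include those with 270 and 135 Mmp13 UMIs. Mmp13 was called lower in both of these clusters.

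The normal clusters also differed from each other. In the cluster led by Abca8a, 9 genes were at least 2-fold higher than in the cluster led by Sema3c (8.68% of all genes were) and 2 lower (6.17% of all genes). The 9 were Mmp3, Mmp11, Timp1, Adamts12, Plau, Serpine2, Ctsk, Htra1 and Fap, and the 2 were Timp2 and Pcsk6. Serpine2 was at 822 CPM in the cluster led by Abca8a and 44.5 CPM in the cluster led by Sema3c. Mmp3 was at 67.7 CPM in the cluster led by Abca8a and 1.89 CPM in that led by Sema3c. Timp2 was at 951 CPM in the cluster led by Abca8a and 3070.1 CPM in that led by Sema3c, and Pcsk6 at 137 CPM in the cluster led by Abca8a and 894 CPM in that led by Sema3c. For some genes the comparison between the libraries depended on this mixture. The Fap call was lost when the cluster led by Abca8a was left out, with a log2 fold of -0.25, and the log2 fold of Mmp3 was then 7.46 in place of 3.40.

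Across the 4 tumour and these 2 normal clusters, some genes kept the libraries apart and others did not. Timp1 ranged from 486 to 2609.8 CPM in the tumour clusters and from 17.8 to 47.3 CPM in the normal ones. Mmp3 ranged from 118 to 844 CPM in tumour and from 1.89 to 67.7 CPM in normal clusters. Adamts5 ranged from 65.8 to 406 CPM in tumour and from 879.95 to 1361 CPM in normal clusters, and Pcsk6 from 3.28 to 70.4 CPM in tumour and from 137 to 894 CPM in normal clusters. Of the 29 genes with 20 CPM in either sum, 12 did not overlap between the libraries (41.4%), against 44.9% of all such genes, so that such a gap was about as frequent among all genes. In 9 of the 12 the tumour clusters were higher (12.6% of all genes) and in 3 lower (32.3% of all genes). Adamts4, Mmp11, A2m, Plaur and Reck did not overlap either, nor did Mmp2, Ctsk and Ctsl, whose folds were not called. Ctss, under 20 CPM in both sums and so not among the 29, did not overlap either. Plau, Fap and Adamts12 overlapped, and so did Mmp13. The ratio of Timp1, Timp2 and Timp3 UMIs to the UMIs of the 10 MMPs was 1.56 in tumour and 2.01 in normal fibroblast-like cells. It varied more within each library, at 2.42, 2.34, 0.670 and 0.907 in the tumour clusters led by Inhba, Thbs4, Ptx3 and Apod and at 1.17 and 4.20 in the normal clusters led by Abca8a and Sema3c.

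**Figure D4:**
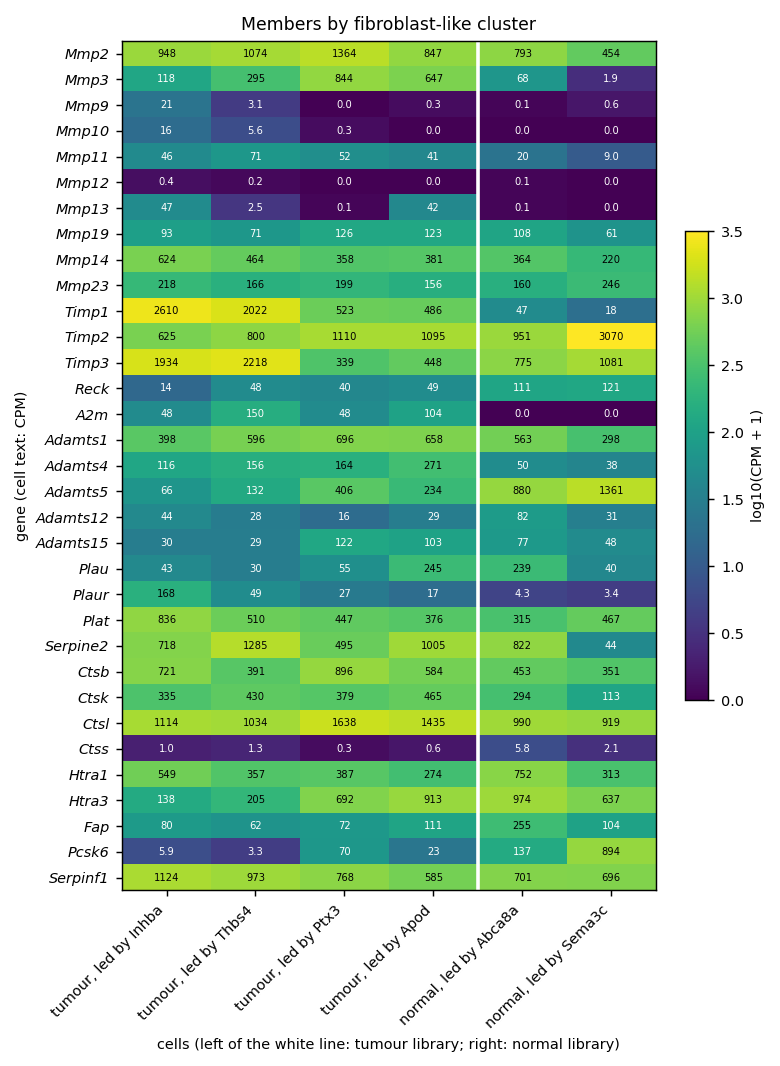
CPM of each gene (rows) in the 4 tumour clusters (left of the white line) and the 2 normal clusters (right) of fibroblast-like cells, named by their leading genes. The colour is log10(CPM + 1) and the text is CPM, with Timp1 above 486 CPM in every tumour cluster and Pcsk6 and Timp2 brightest in the normal cluster led by Sema3c.

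Outside the fibroblasts, macrophage-like cells had a protease set of their own. Mmp12 was at 2678 CPM in the 53 tumour macrophage-like cells and 34.7 CPM in the 1398 normal ones, a fold of 77.1 (69.1 to 86.2). Its 1394 tumour UMIs lay in 13 of the 53 cells. A single cell held 660 of them, and without that cell the tumour level was 1471 CPM. Mmp9 was at 232 CPM in tumour and 162 CPM in normal macrophage-like cells, but 1 tumour cell held 69 of its 121 tumour UMIs, and without that cell the tumour level was 104 CPM. Ctss was at 2747 CPM in tumour and 1422 CPM in normal macrophage-like cells, and Ctsb at 2419 CPM and 2875 CPM. At 2000 UMIs per cell, 87.8% of tumour and 89.4% of normal macrophage-like cells had a Ctss UMI, against 0.139% and 1.16% of fibroblast-like cells. Called higher by the same rule, where 12.2% of genes were, were also Mmp2, Mmp13, Mmp14, Mmp19, Timp1, Plau, Plaur, Plat, Ctsk, Ctsl and Htra3. Some of these calls rested on few of the 53 tumour cells. Mmp2 had 20 tumour UMIs, 14 of them in 1 cell, and was at 11.9 CPM without that cell. Mmp13 had 31 UMIs in 5 cells, Plat 20 UMIs in 6 cells and Ctsk 32 UMIs in 4 cells. Mmp19 had 37 of its 87 UMIs in 1 cell and was at 100.2 CPM without that cell. Timp2 was 4.24-fold lower (3.64 to 4.97), at 323 CPM in tumour and 1369 CPM in normal macrophage-like cells, and Serpinf1 was lower too, where 14.8% of genes were. Several of these genes are abundant in fibroblasts, and the part of free RNA in them was not tested. In tumour T-like or NK-like cells, Mmp3 stood at 183 CPM from 21 UMIs in 1 of 24 cells.

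Different clusters held most macrophage-like cells of each library. Of the tumour cells, 48 of 53 were in a cluster led by Ear2, with monocyte genes such as Ccr2, while 938 normal cells were in one led by Ms4a7, 336 in one led by Marco and 124 in the one led by Ear2. Within the cluster led by Ear2, Mmp12 was at 2915 CPM in tumour and 269.8 CPM in normal cells, a fold of 10.8 (9.62 to 12.2). Of the 1394 tumour UMIs there, 660 were in 1 cell, and 13 of the 48 cells had any. Mmp9 was at 253 CPM in tumour and 30.5 CPM in normal cells of this cluster, a fold of 8.30 (5.78 to 12.1), with the same 69 tumour UMIs in 1 cell. Timp2 was at 253 CPM in tumour and 362 CPM in normal cells of this cluster, not past 2-fold. Ctsl stayed apart, at 1418 CPM in tumour and 55.0 CPM in normal cells of the cluster, a fold of 25.8 (20.3 to 33.2).

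**Figure D5:**
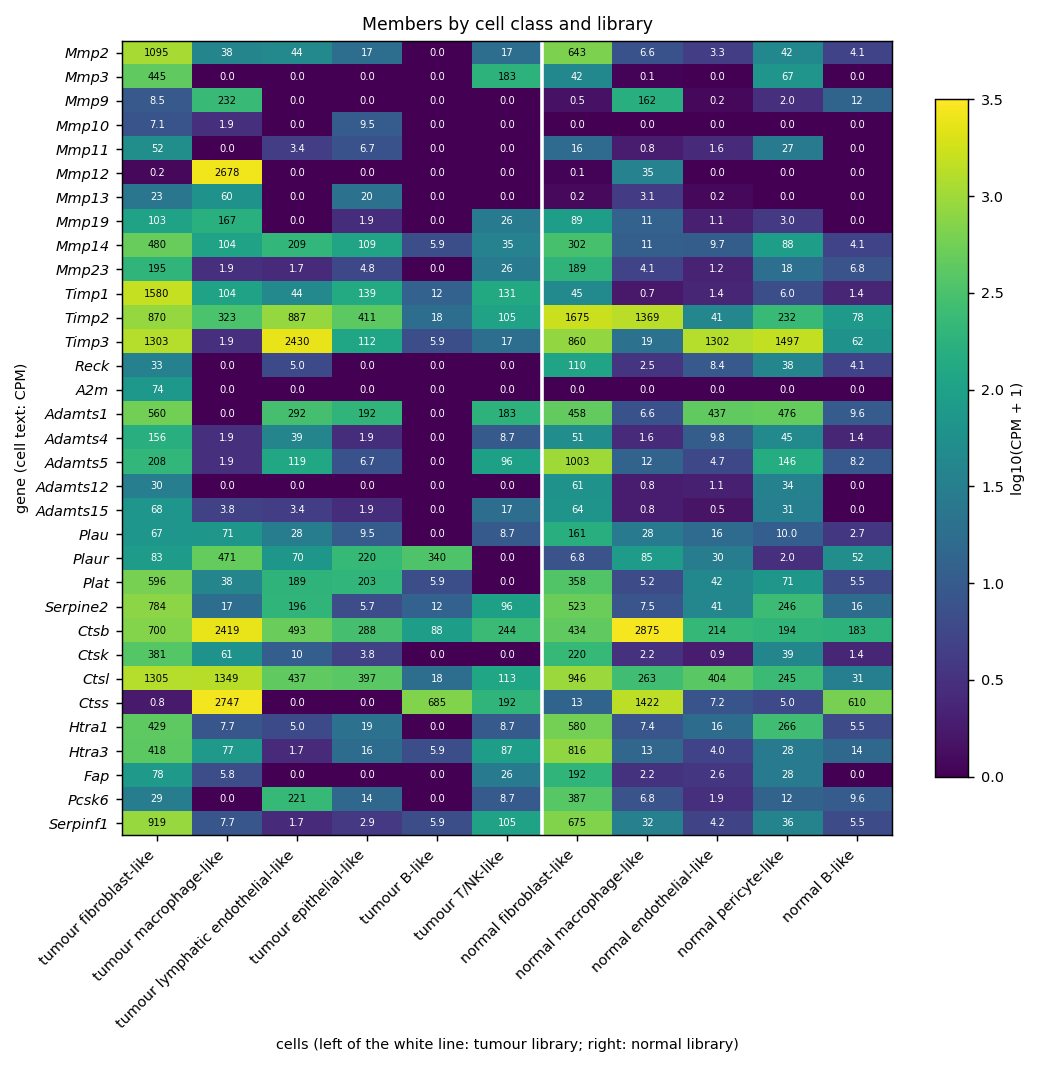
CPM of each gene (rows) by cell class, tumour library left of the white line and normal library right, for classes with at least 20 cells. The colour is log10(CPM + 1) and the text is CPM, with Mmp12 at 2678 CPM and Ctss at 2747 CPM in tumour macrophage-like cells and A2m above 0 only in tumour fibroblast-like cells among the classes drawn.

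Of 75 other protease and inhibitor genes, 37 had at least 20 CPM in either fibroblast-like sum. Of these, 8 were called higher in tumour cells, 7 lower and 22 neither, with a median log2 fold of 0.04, where 7.47% of all genes were called higher and 11.3% lower, with a median of -0.25. The 13 genes listed for other MMPs and Timp4 all stayed under 20 CPM in both sums. Among the neighbours on chromosome 9, Mmp8, the neutrophil collagenase, had 78 UMIs in tumour and 1 UMI in normal fibroblast-like cells. Among those with 20 CPM, the highest folds were Serpina3n, an inhibitor of serine proteases, at 535 CPM in tumour and 16.6 CPM in normal cells, Ctsc, the cathepsin that activates granule serine proteases, at 196 and 14.5 CPM, and Adam12, a membrane-bound metalloproteinase, at 56.4 and 6.67 CPM. The lowest were Slpi, an inhibitor of leukocyte elastase, at 2.92 CPM in tumour and 132.7 CPM in normal cells, Adam33 at 18.5 and 132 CPM, and Dpp4, a surface peptidase related to Fap, at 32.5 and 224 CPM. All but 8 of the 1890 normal Slpi UMIs lay in the 50 normal cells that fell with the cluster led by Inhba.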

How the data were processed

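Cells sorted for GFP, and in the tumour library also for PDPN, were profiled in 2 libraries of 10x Genomics 3′ single-cell RNA sequencing, 1 per group. Per the submitters' processing notes, Cell Ranger 3.1.0 and the mm10 build were used, and the matrices as deposited hold raw counts of UMIs for each gene in each barcode. The further steps of the authors are not given in the sources used here. The 33 genes and the other gene lists were chosen with earlier results of these data known, and support no statement about lists in general. All 33 genes are named, and the 3 highest and 3 lowest folds of the other protease genes that reached 20 CPM. Mmp8 and Timp4 were named after their values were seen.

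Barcodes with at least 500 genes, 1000 UMIs and at most 10% mitochondrial UMIs were kept (2573 tumour, 4616 normal). Scrublet in scanpy 1.11.5 removed 101 normal cells. In the tumour library it marked 2 cells (0.0777%), under the limit of 0.5%, so the 53 top-scoring cells were removed at a rate of 0.8% per 1000 cells. Clustering used both libraries at once, with no integration step and with the 33 genes left out (2000 variable genes, 30 principal components, 15 neighbours, Leiden resolution of 0.5), and clusters were named from marker lists. Counts were summed per class and library. Fold intervals (95%) treat the 2 sums as Poisson counts and are exact (scipy 1.17.1), a count of 0 was set to 3, and shares have Clopper-Pearson intervals. TMM scaling used edgeR 4.0.16. Coordinates came from GENCODE M21 and promoters from RefSeq (GRCm38.p6). On simulated sums of 6445 genes for the fibroblast-like comparison, 199 of 200 changed genes were called in the right direction and 0 of 6245 unchanged ones. Both sums were drawn as Poisson counts from the normal sum, with changes only in genes of at least 20 normal CPM. They hold no spread between cells or mice, so this checks the arithmetic of the rule alone and not the calls above.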

Additional observations from a re-analysis of the deposited data

Results flagged for a closer look

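Plau differed in direction between cell classes. Its log2 fold of tumour over normal was -1.26 in fibroblast-like cells, called lower, at 67.4 CPM in tumour and 161 CPM in normal cells. Without the normal cluster led by Abca8a the log2 fold in fibroblast-like cells was 0.76. The call was also lost with TMM scaling, with every cell weighted the same and with all retained cells. In macrophage-like cells the log2 fold was 1.34, called higher, at 71.1 CPM in 53 tumour cells and 28.0 CPM in 1398 normal cells. The tumour level there rested on 37 UMIs in 12 of the 53 cells. Within the cluster led by Ear2, which held most of the tumour ones, Plau was at 62.7 CPM in tumour and 9.66 CPM in normal cells, a fold of 6.49 (3.29 to 13.6). The difference between the classes was not tested, since there was 1 library per group, and the macrophage-like cells of the libraries came mostly from different clusters.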

How the results depend on the processing

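The counts of 7 genes higher and 6 lower in tumour fibroblast-like cells were recomputed under 25 other settings each. They came within 1.5 times of these counts in all but 6 cases. Genes higher numbered 12 with TMM scaling, 11 without the cluster led by Abca8a, 18 with all retained cells and 13 at 1.5-fold. Genes lower numbered 3 with TMM scaling and 2 at 4-fold. TMM shifted every log2 fold by 0.35 and median-of-ratios scaling by 0.25, which gave 9 genes higher and 5 lower. With TMM, Adamts12, Plau and Fap lost their calls and Mmp2, Mmp14, Plat, Ctsb and Ctsk gained one. Adamts12 changed sign without the cluster led by Abca8a (log2 fold 0.064) and with all retained cells (0.040), and Plau without that cluster (0.76). Of the genes not called, Mmp9 (-2.31, called lower), Ctsb (-0.82), Htra1 (0.62) and Htra3 (0.14) changed sign with all retained cells and Htra1 (0.46) without the cluster led by Abca8a, as did Mmp23 and Adamts15, whose log2 folds lay near 0, in some settings. The causes were not tested. Without thinning, the tumour minus normal share of cells with a UMI changed sign for Mmp14 (-3.22 percentage points, against 1.71 thinned), Plat (-0.674) and Ctsb (-0.545), and for Mmp12, near 0 in both. Mmp13 lost its call without the cluster led by Inhba, with every cell weighted the same, and without its top cell, an alternative chosen after seeing the data. Leaving out the 50 normal cells that fell with the cluster led by Inhba, also chosen after seeing the data, kept 7 higher and gave 7 lower. Mmp3, Mmp11, Timp1, A2m, Adamts4, Plaur, Adamts5 and Pcsk6 kept their calls in all 21 settings that change the sums. Leiden resolution of 1 gave the same class. No paired analysis was possible because each group has 1 library. At this depth 1 UMI is 0.0344 CPM in the tumour and 0.0702 CPM in the normal fibroblast-like sum, and differences between mice cannot be seen.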

Other observations

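The level of Timp3 was high in vascular cells too. Timp3 was at 2429.9 CPM (2306 to 2558) in 68 tumour lymphatic endothelial-like cells, 1302 CPM in normal endothelial-like cells and 1497 CPM in normal pericyte-like or smooth muscle-like cells, against 1303 CPM in tumour and 860.4 CPM in normal fibroblast-like cells. The tumour lymphatic endothelial-like cells also had Pcsk6 at 221 CPM, in 69.1% of the cells, and Adamts1 at 292 CPM. Adamts1 was at 437 CPM in normal endothelial-like and 476 CPM in normal pericyte-like or smooth muscle-like cells.

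Among the normal fibroblast-like cells, those with only Y-linked UMIs and those with only Xist differed in some of the genes. Timp2 was at 1896 CPM in the first and 1455 CPM in the second, and Pcsk6 at 479 and 286 CPM. Both genes also differed between the normal clusters. In that led by Abca8a, Timp2 was at 951 CPM and Pcsk6 at 137 CPM, and in that led by Sema3c at 3070.1 and 894 CPM. The mix of clusters among the 2 kinds of cells was not compared. All are cells of 1 library, so no test was possible.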
